A study of Mus musculus with 3 samples.

Results

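The genes described here mark monocytes that enter injured tissue and macrophages rich in Spp1. They were taken as 10 listed symbols, all of them present among the 32285 genes of the files. Spp1, Lgals3, Gpnmb, Fabp5 and Arg1 belong to the Spp1 macrophage state, Cd68 and Lyz2 are general genes of phagocytes, and Ly6c2, Plac8 and Chil3 are genes of classical monocytes. The data are Visium spatial transcriptomes of heart cryosections from adult C57BL/6 mice, in which each barcoded spot captures RNA of the tissue lying on it, counted as unique molecular identifiers (UMIs). There was 1 section for each of 3 conditions. The sham mouse received vehicle by gavage for 7 days and the open-chest operation without ligation or recanalization of the artery. The ischemia-reperfusion (I/R) mouse received vehicle for 7 days, then 30 min of ligation of the left anterior descending artery (LAD) and 24 h of reperfusion. The SBP mouse underwent the same ischemia and reperfusion after 7 days of Shexiang Baoxin Pill, a traditional Chinese medicine labelled MUSKARDIA. Hearts were cut into small pieces before embedding, so that a section shows part of a heart, and a spot holds several cells of different types, so that no value below belongs to 1 cell type alone. Condition, animal, piece and section cannot be told apart, no test between conditions was possible, and all 95% intervals cover counting error only.

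After an infarct, neutrophils arrive first and Ly6C-high monocytes follow, drawn from blood and spleen by chemokines such as Ccl2 that act on the receptor Ccr2. In the tissue these monocytes turn into macrophages that take up dead cells. Spp1 encodes osteopontin, a secreted matrix protein that binds Cd44 and integrins, and macrophages that make it are known from fibrotic and infarcted tissue. Lgals3 encodes galectin-3, a lectin secreted by activated macrophages, Gpnmb a membrane glycoprotein of phagocytes with heavy lysosomal load, Fabp5 a carrier of fatty acids that endothelial cells also express, and Arg1 the arginase that splits arginine into ornithine and urea. Cd68 encodes a lysosomal membrane protein and Lyz2 the lysozyme of myeloid cells. Ly6c2 encodes a surface antigen of classical monocytes, Chil3 a chitinase-like protein that monocytes and some macrophages secrete, and Plac8 a small cysteine-rich protein of monocytes and other leukocytes.

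Promoters of 8 of the 10 genes were matched in RefSeq (GRCm38.p6), as windows from 250 bases before to 50 bases after a start site. Fabp5 and Arg1 had no entry. The letters AGGAAGT, the core bound by PU.1, a factor that monocytes and macrophages need to form, and by other ETS factors, were searched on both strands. The 8 genes had 11 windows, of which 5 held a match, against 9.35% of the 32851 windows of all genes. These belonged to 4 of the 8 genes (Spp1, Lyz2, Ly6c2 and Chil3). A stretch of 130 bases that holds the match is shown for each, in the direction of the gene, because these genes span all 3 roles. The capitals mark the match, which reads AGGAAGT in Spp1 and Ly6c2 and its reverse complement in Lyz2 and Chil3. Ly6c2 had overlapping windows, each with 2 matches, of which the stretch shows only the first.
Spp1, chr5:104434941-104435070, plus strand: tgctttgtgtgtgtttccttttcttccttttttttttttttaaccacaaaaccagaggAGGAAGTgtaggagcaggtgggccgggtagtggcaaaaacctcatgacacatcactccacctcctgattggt
Lyz2, chr10:117282313-117282442, minus strand: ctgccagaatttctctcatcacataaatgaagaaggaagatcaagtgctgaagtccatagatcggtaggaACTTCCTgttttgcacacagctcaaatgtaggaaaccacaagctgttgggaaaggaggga
Ly6c2, chr15:75112012-75112141, minus strand: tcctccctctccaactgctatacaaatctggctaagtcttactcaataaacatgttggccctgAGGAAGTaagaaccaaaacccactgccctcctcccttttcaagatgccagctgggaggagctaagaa
Chil3, chr3:106167605-106167734, minus strand: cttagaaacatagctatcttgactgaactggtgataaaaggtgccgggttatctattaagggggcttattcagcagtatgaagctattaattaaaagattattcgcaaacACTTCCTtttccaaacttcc

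Another 3 motifs were searched in the same way. TGANTCA, the AP-1 motif, was in 2 of the 11 windows (Cd68 and Gpnmb), against 7.81% of all windows. TTGCNNAA, part of the C/EBP motif, was in 3 (Cd68, Plac8 and Spp1), against 10.8%. CACGTG, an E-box, was in none, against 7.15%. A match is a run of letters and not a measured binding site.

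The kept spots numbered 2234, 2082 and 1960 with 25118258, 30238530 and 21631280 UMIs, where values given as a row of 3 here and below are those of sham, I/R and SBP. The I/R section was the deepest, with a median of 14672 UMIs per spot against 10645 for sham and 10652.5 for SBP, and the mitochondrial genome took between 44.3% and 48.6% of the UMIs. The sections shared 1207 to 1568 barcodes in pairs, since slides carry the same barcode list, and spots with the same barcode are different pieces of tissue. Markers of heart muscle (Myh6, Tnnt2, Ttn, Pln and Actc1) summed to 15794 to 20062 UMIs per 1000000 UMIs of a section (CPM), while 3 T cell and 3 B cell markers had 11 to 42 UMIs per list and section.

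The 10 genes were higher in the I/R section than in the sham section, each with an interval of the ratio above 1. Of the 10, 8 were at least 2-fold higher, a size that 8.38% of the 12231 genes with at least 50 UMIs in this pair reached. The median log2 ratio of the 10 was 1.88, against 0.24 over all these genes. In tissue made of several cell types, fewer cells of a type and less RNA per cell cannot be told apart. Spp1 was at 107, 456 and 147 CPM, and its level was 4.27-fold higher in I/R than in sham (95% interval 4.10 to 4.45). Lgals3 stood at 39.8, 162 and 75.2 CPM, a ratio of I/R to sham of 4.08 (3.81 to 4.37). Arg1 had the widest ratio of the members, with 3.74, 47.5 and 16.4 CPM. Its 12.7-fold difference between I/R and sham, on 94 UMIs in sham, had rank 18 of the 12231 genes. Gpnmb, the rarest gene of the Spp1 macrophage state in I/R, had 5.77, 10.5 and 5.46 CPM and a log2 ratio of I/R over sham of 0.86 (0.57 to 1.15). Fabp5 was at 73.2, 120 and 82.5 CPM with a log2 ratio of 0.72 (0.63 to 0.80), and these were the 2 genes under 2-fold.

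The phagocyte genes lay in between. Lyz2, the most abundant of the 10 by count, had 283, 695 and 346 CPM, and Cd68 had 18.2, 49.1 and 23.2 CPM. They were 2.46-fold (2.39 to 2.52) and 2.70-fold (2.43 to 3.01) higher in I/R than in sham. The monocyte genes were scarce in sham. Chil3 rested on 142 UMIs there and had 5.65, 49.0 and 24.9 CPM, an 8.67-fold difference between I/R and sham (7.29 to 10.4). Ly6c2 had 31 UMIs in the whole sham section, and its levels of 1.23, 8.73 and 5.22 CPM gave a 7.07-fold difference with a wide interval of 4.87 to 10.6. Plac8 stood at 2.83, 9.36 and 7.30 CPM, a 3.31-fold difference (2.54 to 4.36). Counts per gene carry no length correction, so that levels of different genes are not ranked further.

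**Figure D1:**
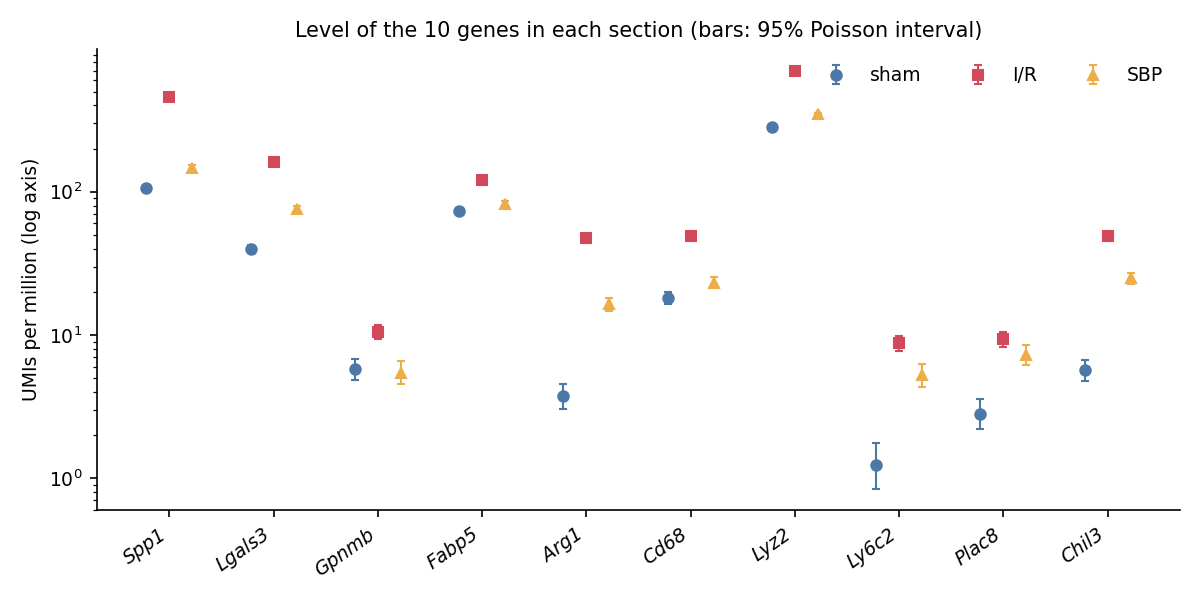
Level of each of the 10 genes in the 3 sections, as CPM on a log axis, with 95% Poisson intervals as bars. The I/R section is the highest for all 10 genes, and the SBP section lies between the others for all but Gpnmb, which is at 5.46 CPM in SBP and 5.77 in sham.

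All 10 genes were lower in the SBP section than in the I/R section, each with an interval of the log2 ratio below 0. Such intervals, here and in the other comparisons, are for scaling by totals. The share of all genes with such an interval was not counted. Of the 10, 5 were at least 2-fold lower, against 4.53% of 12151 genes, and the median log2 ratio was -0.99 against -0.17 over all genes. Spp1 (-1.63, interval -1.69 to -1.57) and Arg1 (-1.54, -1.71 to -1.37) had the widest ratios. Lgals3, Cd68 and Lyz2 followed at -1.11, -1.08 and -1.01. The other members were under 2-fold, with Chil3 at -0.98, Gpnmb at -0.94, Ly6c2 at -0.74, Fabp5 at -0.54 and Plac8 at -0.36, whose interval was -0.65 to -0.07. This Plac8 interval holds the all-gene median of -0.17. The count depended on the scaling. The share of all genes at 2-fold was counted for scaling by totals only. With TMM factors, which put the median of all genes at -0.01, 2 of the 10 were at least 2-fold lower, Spp1 at -1.47 and Arg1 at -1.38, while Lgals3, Cd68 and Lyz2 were at -0.95, -0.93 and -0.85.

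Against sham, the SBP section had higher levels of the monocyte genes and of Arg1. Chil3 was 4.40-fold, Arg1 4.37-fold, Ly6c2 4.23-fold and Plac8 2.58-fold higher, and these 4 were the members at or past 2-fold, against 1.48% of 11768 genes. Over the whole section Spp1 was 1.38-fold higher (1.31 to 1.45), Lgals3 1.89-fold, Cd68 1.28-fold, Lyz2 1.22-fold and Fabp5 1.13-fold. Gpnmb had a log2 ratio of -0.08 with an interval of -0.44 to 0.28. Side by side, with the sham section shared, Spp1 had rank 146 of 12231 genes for I/R over sham and rank 1089 of 11768 for SBP over sham, and Chil3 had ranks 37 and 18.

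Markers of other cells in the same sections are given because a spot mixes cells. The neutrophil genes S100a8, S100a9, Csf3r, Mmp9, Cxcr2 and Retnlg summed to 32.8, 267 and 128 CPM, and all 6 were at least 2-fold higher in I/R than in sham, led by S100a8 at a log2 ratio of 3.40. Of all genes, 8.38% were at least 2-fold higher in this comparison and 0.523% at least 2-fold lower, which is the background for each list here and below. Of 6 further monocyte genes, 5 were at least 2-fold higher in I/R than in sham. Among them Ms4a4c was at 2.81, on 22 UMIs in sham, and Ccr2 at 2.01. Fcgr1, an antibody receptor, was at 1.75 and Cd14, a receptor for bacterial lipopolysaccharide, at 1.46, while Vcan was at 0.93. Ccr2 had 10.9, 43.9 and 15.3 CPM. Of 6 general macrophage genes none reached 2-fold. All 6 intervals lay above 0, with a median log2 ratio of 0.39, against 0.24 over all genes. Ms4a7 was at 0.91 and Adgre1, the F4/80 antigen, at 0.78. The complement subunit genes C1qa and C1qc, at 0.18 and 0.19, were under the all-gene median. The 6 genes of resident heart macrophages had a median log2 ratio of I/R over sham of -0.32, from 0.17 for F13a1 to -0.65 for Timd4. Of the 6 intervals 3 lay below 0 and 2 above. Timd4, which long-lived resident macrophages express, rested on 47 UMIs in sham and 36 in I/R. The part of the other cells in the levels of the 10 genes was not tested.

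Partner genes were read from lists. Among 9 genes for receptors of osteopontin, 4 were at least 2-fold higher in I/R than in sham and none was 2-fold lower. Cd44 was at 12.0, 51.3 and 21.6 CPM, with a log2 ratio of I/R over sham of 2.09. The integrin genes Itga4, Itga5 and Itgb3 followed at 1.34, 1.25 and 1.12, and Itga9 was at -0.51. Of 10 genes for the recruitment of monocytes, 9 had enough UMIs and 5 were at least 2-fold higher. The chemokine genes Ccl2, Ccl3, Ccl7, Ccl12 and Ccl4 had log2 ratios of 2.17, 2.10, 2.04, 1.80 and 1.56, and the adhesion gene Vcam1 had 0.14. Ccl3 rested on 13 UMIs in sham. Ccl2 was at 29.3, 132 and 58.6 CPM. Of 24 genes for lysosomes and lipid handling, 7 were at least 2-fold higher. They were led by Hmox1, which degrades heme, at 2.04 and the scavenger receptor gene Msr1 at 1.97. Tyrobp and Trem2 were at 1.43 and 1.34, while Lamp1 and Lamp2 were at 0.05 and 0.22. Lpl and Cd36, which act in the fat supply of heart muscle, were at -0.51 and -0.36. Of 9 genes around arginine and polyamines, 8 had enough UMIs and 4 were at least 2-fold higher. Ass1, which takes part in making arginine, was at 1.76, Srm at 1.65, Odc1, which turns the ornithine that arginase yields into putrescine, at 1.17, and the fourth was the arginine carrier gene Slc7a2, at 1.63 CPM in sham and 3.27 in I/R.

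The genes also differed in how many spots held them. Spp1 had a UMI in 19.7% of the sham spots (exact binomial interval 18.1 to 21.4), 62.2% of the I/R spots (60.1 to 64.3) and 28.6% of the SBP spots (26.6 to 30.6). Because the I/R section was deeper, spots were also thinned at random to 6500 UMIs each, for which 132, 202 and 213 spots were too shallow. After thinning Spp1 was present in 14.0%, 44.9% and 17.7% of the spots. Lyz2 was the most widespread, in 65.6%, 78.5% and 66.7% of thinned spots. Arg1 was found in 1.71%, 15.1% and 4.92% of thinned spots, and Ly6c2 in 0.714%, 4.15% and 1.77%.

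Several members had most of their sham UMIs in a few spots. The 23 sham spots richest in Spp1, 1% of the section, held 55.4% of its UMIs, 18 spots held 50% of them, and 1 spot held 308 of the 2679. Measured as variance between spots beyond counting noise, relative to the squared mean, Spp1 had rank 1 of 6660 sham genes with at least 200 UMIs, at a value of 49.2 against a median of 0.41, and Lgals3 had rank 3 at 33.3. In I/R the same measure for Spp1 was 12.6, rank 15 of 8072 genes, and in SBP it was 15.8, rank 10 of 6364. Lyz2 and Fabp5 were spread more widely, with 17.5% and 17.0% of their sham UMIs in the 23 spots richest in each.

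The crowded spots were in part shared by different members. For each gene, its share of UMIs was taken in the 5% of spots with the highest summed level of the other 9 genes, which held 3.42% to 5.46% of all UMIs of a section. For Spp1 this share was 73.2%, 40.2% and 58.2%. For Gpnmb it was 73.1%, 44.5% and 52.5%, and for Arg1 66.0%, 39.8% and 49.4%. Fabp5 had 24.3%, 24.1% and 21.1%, and Plac8 31.0%, 17.0% and 26.6%. Fabp5, Plac8, Lyz2 and Cd68 had the 4 lowest shares in every section.

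**Figure D2:**
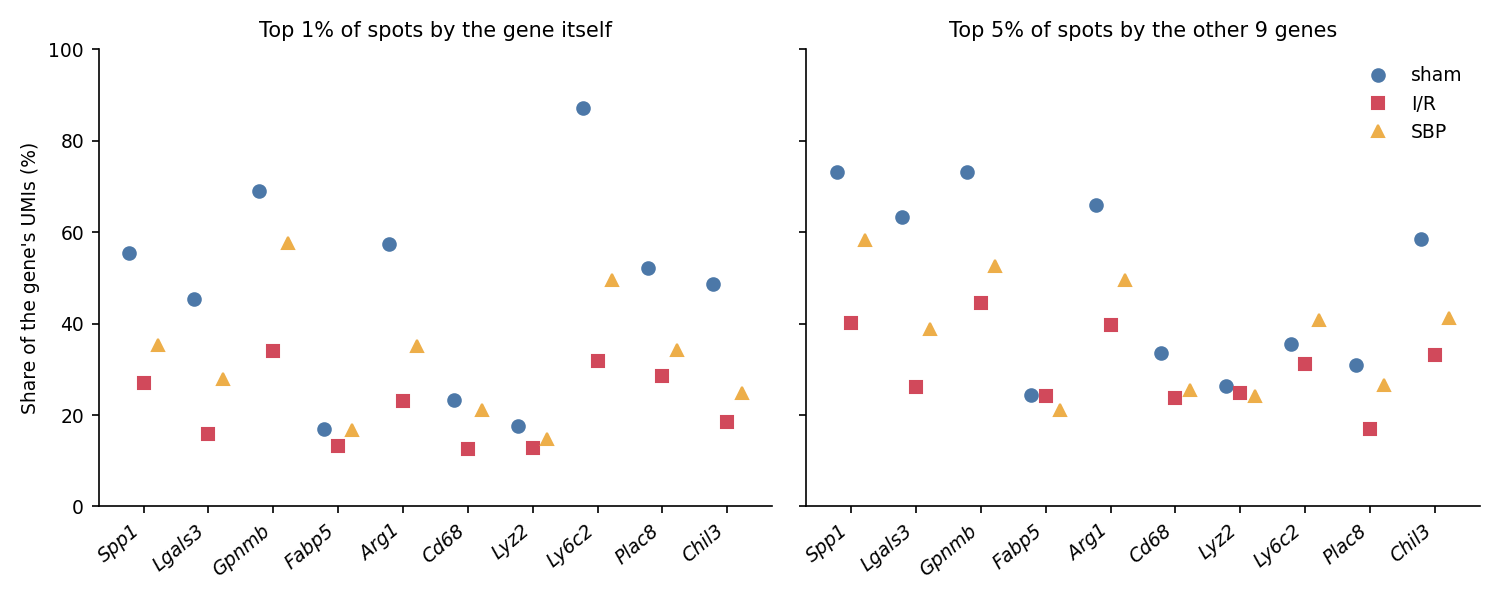
Share of the UMIs of each gene (percent, from 0) in the 1% of spots with most UMIs of that gene (left) and in the 5% of spots with the highest summed level of the other 9 genes (right), for the 3 sections. Spp1 has 55.4% of its sham UMIs on the left and 73.2% on the right, against 27.0% and 40.2% in I/R. Genes with few UMIs, such as Ly6c2 with 31 in sham, reach high values on the left by their small number.

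The 23 sham spots with the highest summed level of the 10 genes were looked at further. The members themselves set this ranking, so their shares and levels there follow in part from the choice of spots. They held 0.989% of the sham UMIs, 52.2% of the Spp1 UMIs, 56.6% of the Gpnmb UMIs, 42.6% of the Arg1 UMIs and 39.2% of the Lgals3 UMIs, but 15.2% of the Lyz2 UMIs. Ly6c2 and Plac8 had 5 and 4 UMIs there. Spp1 stood at 5629 CPM in these spots and at 51.5 CPM in the rest of the sham section. The 6 injury genes, among them Timp1, Ccn2, Tgfbi, Tnc and Fn1, summed to 2647 CPM against 184 CPM elsewhere, neutrophil genes to 612 against 27.0 CPM, monocyte recruitment genes to 1521 against 119 CPM, and heart muscle genes to 8598 against 20177 CPM. General macrophage genes summed to 2084 against 384 CPM, the further monocyte genes to 318 against 33.7 CPM, and fibroblast genes to 1545 against 1044 CPM. No value over all genes is given for these spots. The mitochondrial share was 22.4% in these spots and 48.9% in the others. In I/R, the 21 spots at the top held 23.7% of the Spp1 UMIs with a mitochondrial share of 13.8% against 44.6% in the others.

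These spots bear on the ratios between sections. Without the 1% of spots with the highest summed level in each section, a setting chosen after the sham spots had been seen, the log2 ratio of I/R over sham was 2.77 for Spp1, 2.61 for Lgals3, 1.81 for Gpnmb and 4.29 for Arg1. It was 1.77 for Plac8 and 0.81 for Fabp5. The count of members at least 2-fold higher was then 9 in place of 8. For SBP over sham the count was 6 in place of 4, with Spp1 at 1.03, Lgals3 at 1.38 and Gpnmb at 0.84 in place of -0.08. For SBP over I/R 7 in place of 5 were at least 2-fold lower. The members' own sum picked the spots left out, which held 25.0%, 12.7% and 14.5% of the member UMIs. The sham section lost the largest share, so that the rise of the ratios over sham follows in part from this choice. The share of all genes at 2-fold without these spots was not counted.

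Across the spots of the I/R section the members varied together to different degrees. Over 45 pairs of members, Pearson's r of log2(1 + UMIs per 10000) over 2082 spots had a median of 0.39, a highest value of 0.79 for Spp1 with Lgals3 and a lowest of 0.14 for Gpnmb with Plac8, genes with 317 and 283 UMIs. These r describe spots that share 1 library and differ in depth. In sham the median was 0.27 and in SBP 0.26. After thinning, r of Spp1 with Lgals3 in I/R was 0.73. Among 4609 genes with at least 500 UMIs in I/R, those most like the summed members were the actin gene Actb (r = 0.88), the cathepsin gene Ctsb (0.85), the ferritin gene Ftl1 (0.85), Tmsb4x (0.84) and the chemokine gene Ccl6 (0.83). For Spp1 they were Actb (0.84), Ctsb (0.81), the fibronectin gene Fn1 (0.81), Ccl6 (0.80) and Tgfbi (0.79). Arg1 was most like Ccl6 (0.68), Fn1 (0.67), Ccl9 (0.65), Tgfbi (0.64) and Ctsb (0.63), and Chil3 most like Fn1 (0.64), Tgfbi (0.64), Ctsb (0.63), Actb (0.63) and Ccl6 (0.62). For Gpnmb the nearest genes were those of lysosomal proteins, Psap (0.43), Ctsb (0.41), Ctss (0.40), Grn (0.38) and Lgmn (0.37). This was not particular to Gpnmb, since Fabp5 was nearest to Ctsb (0.56), Psap (0.55) and Ctsd (0.52), and Cd68 to Ctsb (0.62). For Ly6c2 the nearest genes were Tgfbi (0.39), Ctsb (0.38), Cotl1 (0.37), Ctsz (0.37) and Coro1a (0.37). For Plac8 they were Coro1a (0.32), Tgfbi (0.32), Tmsb4x (0.30), S100a4 (0.30) and Actg1 (0.29).

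The level of the members was then read in the 10% of I/R spots richest in each list of other genes, none of which holds a member. In the 209 spots richest in lysosome and lipid genes, all 10 members were at least 2-fold higher than in the other spots, with a median log2 ratio of 3.59 and a range of 2.61 to 4.32. A large part of all genes, 46.6%, was at least 2-fold higher in those spots, with a median of 0.94. This list also holds genes that macrophages express, such as Trem2, Tyrobp and Msr1, so that it is in part another macrophage list. All 10 members were also past 2-fold in spots rich in macrophage genes (median 3.11, with 40.6% of all genes), monocyte genes (3.08, 47.1%), neutrophil genes (2.48, 45.1%) and resident macrophage genes (2.24, 20.5%). In the monocyte-rich spots Arg1, Spp1, Ly6c2 and Chil3 were at 3.81, 3.79, 3.78 and 3.63, and Plac8 at 3.02, so that the monocyte list did not part the monocyte genes from Spp1 and Arg1. Lists of other tissue cells gave lower values. In endothelial-rich spots 7 of 10 members were past 2-fold (median 1.13), against 8.03% of all genes, and Ly6c2 was at 2.11 (1.71 to 2.50). In smooth muscle-rich spots 7 of 10 were (median 1.15), against 18.7%. Spots rich in fibroblast genes had a median of 0.20 with no member at 2-fold, against 8.60% of all genes. In sham, however, 7 of 10 members were past 2-fold in fibroblast-rich spots (median 1.12), against 13.4%. The sham median was higher still in spots rich in macrophage (3.09), neutrophil (2.89) and monocyte genes (2.69), each with all 10 members past 2-fold. Of all genes, 14.05%, 10.75% and 12.99% were at least 2-fold higher there, in the same order. The 10 include Ly6c2, which had 31 UMIs in sham, under the limit of 50. The medians over all genes in those sham spots were 0.41, 0.32 and 0.38. In I/R spots rich in heart muscle genes 9 of 10 members were at least 2-fold lower, against 16.7% of all genes. Their median was -2.54, and Fabp5 was at -0.70.

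**Figure D3:**
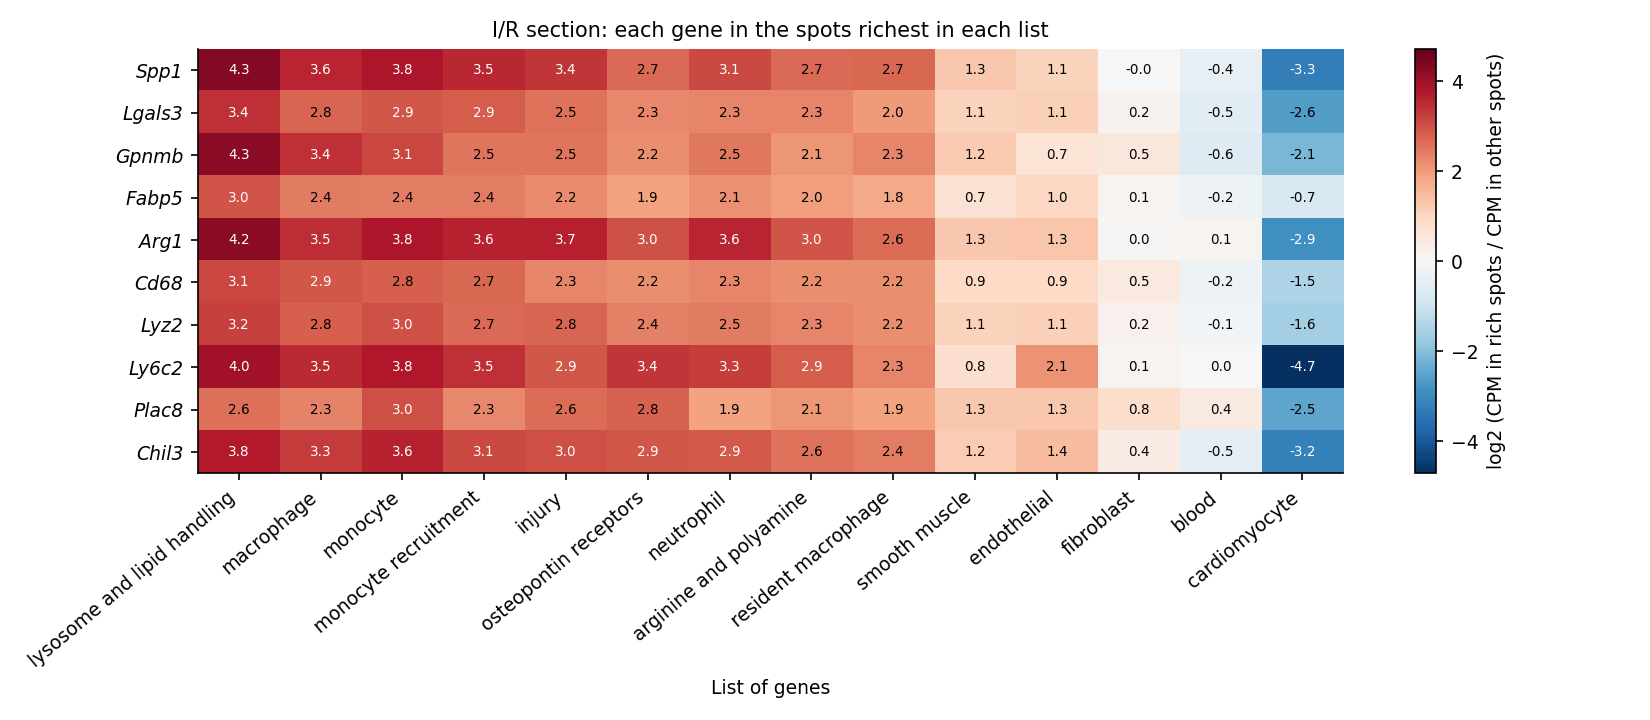
Log2 ratio of the CPM of each of the 10 genes (rows) in the 209 I/R spots richest in a list of other genes to its CPM in the remaining I/R spots, for 14 lists (columns), with the value in each cell. The columns are ordered by the median of the 10 genes, from 3.59 for lysosome and lipid handling to -2.54 for cardiomyocyte genes, where Ly6c2 is at -4.71 and Fabp5 at -0.70.

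The same reading of the SBP section again put all 10 members past 2-fold in spots rich in lysosome and lipid genes (median 3.45, with 17.6% of all genes), monocyte genes (3.04, 16.5%) and macrophage genes (2.50, 12.1%). In neutrophil-rich SBP spots 9 of 10 were (18.2% of all genes), with Fabp5 at 0.73, and in resident macrophage-rich spots 9 of 10 (5.34%), with Ly6c2 at 0.94. Among the monocyte-rich SBP spots Ly6c2 was highest at 4.30, followed by Spp1 at 4.16, and Fabp5 was lowest at 1.54. The endothelial and smooth muscle values of I/R did not recur. In endothelial-rich SBP spots no member was past 2-fold (median 0.03, with 1.35% of all genes). In smooth muscle-rich SBP spots 2 of 10 were (0.72, 6.15%). The same lists in sham gave no member (0.15, 0.959%) and 1 of 10 (0.24, 3.99%).

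The share of spots rich in the 10 genes together differed between sections. A spot was called member-high when the 10 genes summed to more than 12.5 UMIs per 10000, the 95th percentile of the sham spots, which sets the sham share at 5.01%. In I/R 658 spots were member-high, 31.6% (29.6 to 33.7), and in SBP 267 spots, 13.6% (12.1 to 15.2). These spots held 79.8% of the UMIs of the 10 genes in I/R and 56.6% in SBP. Within them the summed level was 4456, 5112 and 3771 CPM, and in the other spots 321, 434 and 358 CPM. The share of such spots was 2.32-fold higher in I/R than in SBP, and the level inside them 1.36-fold higher. The cut was made on the same sum, so the shares of UMIs and the levels on its 2 sides are in part set by it. UMIs of at least 5 of the 10 genes were found in 4.74%, 35.2% and 11.9% of spots, and after thinning in 2.47%, 18.2% and 4.81%.

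Ankrd1, a stress-induced gene of heart muscle, served as the mark of the injured region. The threshold was the 95th percentile of the sham spots, 27.0 Ankrd1 UMIs per 10000, with the nearest sham spots at 26.9 below and 27.1 above. Above it lay 112 sham spots, 479 I/R spots (23.0%, interval 21.2 to 24.9) and 326 SBP spots (16.6%, 15.0 to 18.4). In I/R none of the 10 genes was at least 2-fold higher above the threshold than below it, against 2.12% of 11407 genes. The median log2 ratio of the members was 0.09 and that over all genes 0.24. Spp1 stood at 452 CPM above and 457 CPM below (log2 ratio -0.02, interval -0.07 to 0.04), and Arg1 at 47.7 and 47.4 CPM (0.01, -0.16 to 0.18). Plac8 at 0.43, Lgals3 at 0.42 and Cd68 at 0.34 were the members furthest above 0, and Ly6c2 had -0.27 (-0.71 to 0.15). These directions were not stable. With Ankrd1 divided by UMIs outside the mitochondrial genome all 10 members were below 0, with Lgals3 at -0.19, Plac8 at -0.13 and Cd68 at -0.09. Ly6c2 was above 0 under 4 alternatives, such as 0.17 with the sham 90th percentile. None of the 21 I/R spots with the highest summed level lay above the threshold. Without them Spp1 had a log2 ratio of 0.53 and Arg1 of 0.23, and still no member reached 2-fold. The members' own sum picked these 21 spots and all lay below, so that leaving them out raises these ratios by the choice itself.

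In SBP the members were higher above the threshold. Of the 10, 4 were at least 2-fold higher, against 2.93% of 10468 genes, namely Plac8 (1.27), Chil3 (1.17), Arg1 (1.12) and Lgals3 (1.01). The median was 0.63 against 0.21 over all genes. Chil3 stood at 45.7 CPM above and 20.3 below, and Arg1 at 29.3 and 13.5 CPM. Spp1 had 190 CPM above and 138 below (0.46, 0.34 to 0.58), but the direction depended on the setting. Spp1 was at -0.57 with the sham 99th percentile as the threshold. Without the 20 spots of highest summed level it was at 0.98. Only 1 of these 20 lay above the threshold, so that this rise follows in part from the choice of spots. Fabp5 was at 0.06 (-0.11 to 0.24) and Gpnmb at -0.21 (-0.997 to 0.51). The count of 4 did not hold when Ankrd1 was divided by UMIs outside the mitochondrial genome, where it was 0, and 1 member passed with the sham 99th percentile as the threshold. In sham, 7 of 9 counted genes were at least 2-fold higher in the 112 spots above, against 8.95% of 10641 genes. Plac8 led at 2.60 on 23 UMIs above and 48 below, followed by Chil3 at 1.88 and Spp1 at 1.74. Of the 23 sham spots with the highest summed level, 3 lay above the threshold. Ly6c2, with 31 UMIs in sham, was not counted, and 3 members passed with UMIs outside the mitochondrial genome.

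**Figure D4:**
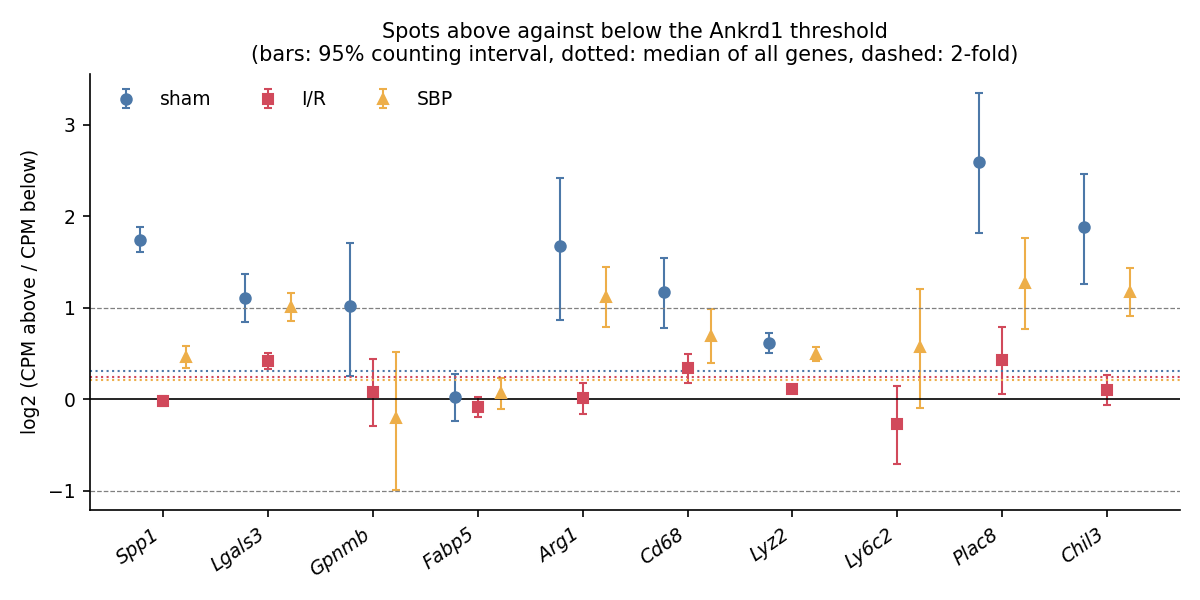
Log2 ratio of the CPM in spots above the Ankrd1 threshold to that in spots below it, for each gene with at least 50 UMIs, in the 3 sections, with 95% counting intervals as bars, the all-gene median of each section as dotted lines and 2-fold as dashed lines. The I/R values lie between -0.27 and 0.43, while 4 genes in SBP and 7 genes in sham reach 1.

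A split at 1 threshold does not show the course along Ankrd1. Spots were therefore also put into 5 classes bounded by the 50th, 80th, 95th and 99th percentiles of Ankrd1 in sham (4.46, 11.2, 27.0 and 38.9 per 10000), a grouping added after the split had been seen. In I/R the classes held 587, 460, 556, 300 and 179 spots. Spp1 was at 199, 477, 756, 542 and 320 CPM from the lowest class to the highest, so that the class just below the threshold had the highest level and the class with most Ankrd1 had less than the second class. Arg1 followed the same course with 23.2, 50.8, 74.0, 57.5 and 33.6 CPM. In I/R 9 of the 10 genes had their highest level in the class from the 80th to the 95th percentile, where 27.9% of 8071 genes had theirs. The exception, Ly6c2, had 12.998 CPM in the second class and 12.93 in the third. The classes used Ankrd1 per 10000 UMIs of all genes. They were not remade with UMIs outside the mitochondrial genome or without the 21 I/R spots of highest summed level.

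The size of this course was read from both sides. Compared with the lowest class, 9 of 10 genes in I/R were at least 2-fold higher in the third, against 21.5% of 10105 genes, with Plac8 at a log2 ratio of 2.48 and Fabp5 at 0.83. Compared with the highest class, the third was at least 2-fold higher for 4 of 10 genes, against 1.45% of 9511 genes. These were Gpnmb (1.55), Ly6c2 (1.34), Spp1 (1.24, 1.14 to 1.33) and Arg1 (1.14), and 9 of the 10 intervals lay above 0, the exception being Plac8 at 0.35 (-0.17 to 0.88).

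In SBP 7 of the 10 genes were highest in the third class, Arg1 and Chil3 in the fourth and Plac8 in the fifth, and 24.8% of 6363 genes were highest in the third. Spp1 was at 15.2, 144, 310, 240 and 102 CPM from the lowest class to the highest. All 10 genes were at least 2-fold higher in the third class than in the lowest, against 13.6% of 9228 genes, with Spp1 at 4.35 and Arg1 at 4.43. The third class was at least 2-fold higher than the highest for Spp1 (1.61) and Gpnmb (2.06, on 80 and 5 UMIs), against 2.58% of 7714 genes. In sham, 6 of 7 counted genes were at least 2-fold higher in the third class than in the lowest, against 6.66% of 9543 genes. A fall to the highest class was also present in sham. There the third class was at least 2-fold higher than the highest for 3 of 7 counted genes, against 4.19% of 6162 genes. These were Spp1 (1.25, 0.87 to 1.67), Gpnmb (1.99, on 68 and 2 UMIs) and Fabp5, and 5 of the 7 intervals lay above 0. Cd68 at -0.35 and Chil3 at -0.92 had intervals that include 0. In sham, 4 members were highest from the 80th to the 95th percentile, against 12.6% of 6659 genes. Spp1 and Ly6c2 were highest from the 95th to the 99th, against 32.2% of genes. Arg1, Cd68, Plac8 and Chil3 were highest over the 99th, against 40.1%. Neither of these higher classes held more members than the all-gene share. The class over the 99th percentile had 23 spots, with 7 UMIs of Arg1 and 11 each of Plac8 and Chil3. Ly6c2 had 5 UMIs in the class where it was highest. In the lowest class Spp1 was at 27.8, 199 and 15.2 CPM, and Arg1 at 0.765, 23.2 and 1.40 CPM.

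**Figure D5:**
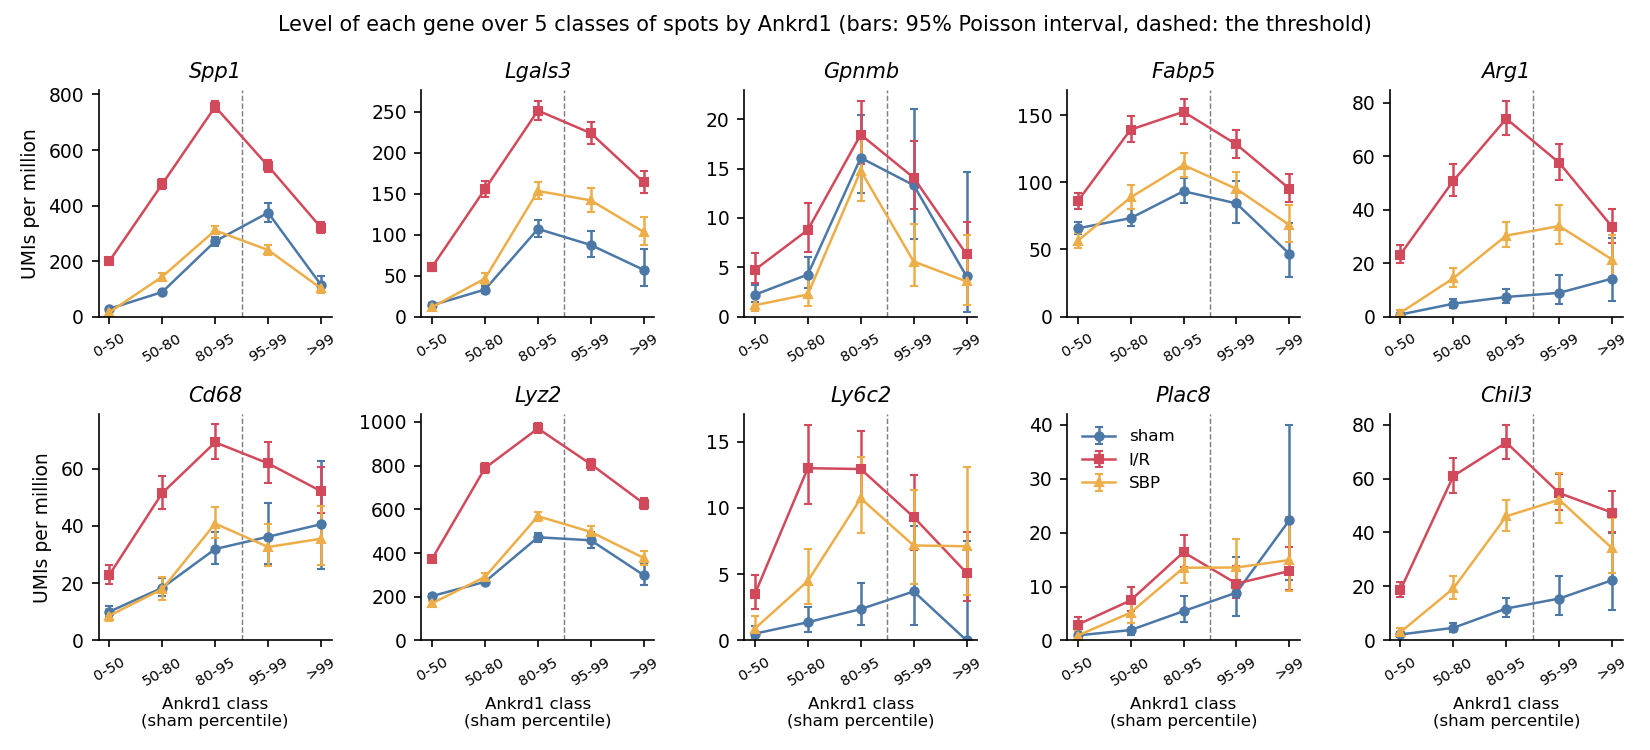
Level of each of the 10 genes (CPM, axes from 0) over 5 classes of spots with increasing Ankrd1, bounded by the 50th, 80th, 95th and 99th sham percentiles, in the 3 sections, with 95% Poisson intervals and the threshold as a dashed line. In I/R the line of Spp1 climbs from 199 to 756 CPM in the third class and is at 320 CPM in the fifth, and 9 of the 10 genes peak in the third class.

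The sections were also compared within each side of the threshold. Among spots above it, 4 of 10 genes were at least 2-fold higher in I/R than in sham, against 5.32% of 9292 genes, and these were Arg1 (2.21), Chil3 (1.57), Ly6c2 (1.49) and Lgals3 (1.33). Plac8 was at -0.12 (-0.79 to 0.61). Among spots below it the count was 8 of 10, against 6.85% of 11866 genes, with Arg1 at 3.88 and Spp1 at 2.33. Among spots above, the SBP section was at least 2-fold lower than I/R for 2 of 10 genes (Spp1 at -1.25 and Gpnmb at -1.17), against 2.96% of 9670 genes. The 3 monocyte genes had intervals that include 0 there, with log2 ratios of 0.29 for Plac8 (-0.22 to 0.78), -0.09 for Ly6c2 (-0.79 to 0.58) and -0.18 for Chil3 (-0.44 to 0.08). Among spots below, all 10 genes were lower in SBP than in I/R with intervals below 0, and 6 of 10 were at least 2-fold lower, against 4.19% of 11678 genes. There Arg1 was at -1.81, Spp1 at -1.73, Chil3 at -1.24 (-1.42 to -1.07), Ly6c2 at -0.93 and Plac8 at -0.56. Between SBP and sham the log2 ratio of Spp1 had opposite signs on the sides of the threshold, a difference that was not tested. Among spots above, it was at 190 CPM in SBP and 305 in sham (log2 ratio -0.68, -0.84 to -0.52). The sham value there rested on 562 UMIs in 112 spots, with 3 of the 23 sham spots of highest summed level among them. Among spots below, Spp1 was higher in SBP, at 0.60 (0.51 to 0.68). Of 8 counted members 2 were at least 2-fold higher in SBP above the threshold (Arg1 at 1.51 and Chil3 at 1.40), against 1.42% of 7129 genes, and 4 of 10 below it, against 1.12% of 11491 genes.

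A region set by other genes gave other values. When the 6 injury genes, summed, took the place of Ankrd1, with their own sham 95th percentile of 7.04 per 10000, 815 spots of I/R (39.1%) and 399 of SBP (20.4%) lay above. In I/R 365 of them were also above the Ankrd1 threshold, which is 44.8% of the injury spots and 76.2% of the Ankrd1 spots. All 10 members were at least 2-fold higher above the injury threshold than below it in I/R, with a median log2 ratio of 3.70. Spp1 was at 4.50, Arg1 at 4.45, Ly6c2 at 4.14 and Fabp5 at 1.81. Of all genes, 40.7% were at least 2-fold higher there, with a median of 0.84, and the mitochondrial share was 33.0% against 50.5% in the other spots. In SBP all 10 members were again past 2-fold, with a median of 3.09, against 19.1% of all genes, and in sham all 9 counted members were, against 30.8%. Of the 6 injury genes, Fn1 and Tgfbi are themselves expressed by macrophages and were among the genes most like Spp1, so that this region is not independent of the members.

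Of the members, 3 have a neighbour gene of similar sequence, between which some reads can be hard to assign. Over the last 300 bases of the transcripts, Ly6c2, Lyz2 and Chil3 were 93.5%, 93.8% and 89.4% identical to these neighbours. The identities below are over whole transcripts. The Ly6c2 transcript (chr15:75108158-75111970, minus strand of GRCm38) was 95.02% identical to that of Ly6c1, which endothelial cells express. Ly6c1 had 135, 155 and 165 CPM and a log2 ratio of I/R over sham of 0.20 (0.13 to 0.26), next to 2.82 for Ly6c2. Lyz2 (chr10:117277331-117282321, minus strand) was 92.0% identical to Lyz1, which had 7, 20 and 6 UMIs. Chil3 (chr3:106147554-106167564, minus strand) was 94.3% identical to Chil4, for which no UMI was counted in any section.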

How the data were processed

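Spatial transcriptomes of 3 mouse heart sections, 1 per condition, were analysed. The authors deposited UMI counts per gene and spot, made with Space Ranger 1.3.0 per the file headers against mm10, with gene counts not normalized. The study's methods name another version and a human reference, while the identifiers in the files are those of the mouse. Only spots with at least 200 detected genes entered. The 3, 1 and 2 spots of sham, I/R and SBP below that held no UMI of the 10 genes.

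UMIs were summed over spots and divided by the total of the section or spot class (CPM). Ratios were given for pairs with at least 50 UMIs, except for Ly6c2 in sham spots rich in a list, with an exact conditional binomial interval. Levels carry exact Poisson and shares exact Clopper-Pearson intervals, all of 95% and for counting error only. A gene was counted as called at 2-fold. With 1 section per condition no p-value was computed. Likeness was Pearson's r over spots, and genes were named as the 5 with the highest r. Neither clusters nor doublet calls were used. Transcripts were aligned for identity with their paralogs. The scripts ran in Python 3.11.15, numpy 2.4.6, scipy 1.17.1 and pandas 2.3.3, and TMM factors came from edgeR 4.0.16 in R 4.3.3. They were checked on simulated counts. The members, lists and classes were chosen with earlier results of these data known, so that nothing here is independent of those. The alternatives changed the scaling, the filters, the depth, the weight of spots, the threshold and the marker of the region. Values of single genes of the monocyte and injury lists that are not named are not reported here.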

Additional observations from a re-analysis of the deposited data

How the results depend on the processing

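No paired analysis was possible because 1 section stood for each condition. Under 16 alternatives, of which the 1.5-fold limit applied to counts only, 645 ratios of single members were recomputed. Of these, 410 stayed inside the counting interval of the reported value, 234 lay outside it, and 1 past 2-fold changed sign. The 410 include the ratios with a limit of 10 UMIs, which leaves each ratio as it was. The sign differed from the reported one in 48, of which 3 were between sections, all for Gpnmb in SBP over sham. The counts of members at 2-fold for I/R over sham (8 to 10) and SBP over sham (4 to 6) stayed within 1.5 times the reported ones. For SBP over I/R, 5 members were 2-fold lower by totals, 2 with TMM factors, 2 with median-of-ratios size factors, and 8 each after thinning, without the 1% of spots richest in the gene, and with 1.5-fold as the limit, which is wider by construction. The median of all genes for I/R over sham was 0.24 by totals and 0.01 with TMM factors, where that of the members was 1.65. Above over below Ankrd1, the sham count of 7 was 4 with the sham 99th percentile and 3 with Ankrd1 per 10000 UMIs outside the mitochondrial genome. Gpnmb in sham, at 1.01, was at -0.52 with the 99th percentile. Spp1 in SBP, at 0.46, was at -0.57 with the 99th percentile. The SBP count of 4 was 2 with equal weight for each spot, 1 with the 99th percentile and 0 with UMIs outside the mitochondrial genome. With the injury genes in place of Ankrd1 the counts were 10 in I/R (0 with Ankrd1) and 10 in SBP. The cause of these shifts was not tested. Apart from the injury genes in place of Ankrd1, the share of all genes at 2-fold was not counted under the alternatives. Ly6c2, Plac8, Arg1, Chil3 and Gpnmb had 31 to 145 UMIs in sham, which limits their ratios there, and no interval covers the difference between animals.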
